A study of Mus musculus with 16 samples.

Results

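Major urinary protein genes (*Mup* genes) were described in the liver of 16 male mice, 8 *Fgl1* LWT and 8 *Fgl1* LKO. The rows of the expression table with the symbols *Mup1*, *Mup3*, *Mup20* and *Mup21* were taken, 4 genes of 17003 in the table, which lists 22 rows of *Mup* genes in all. All mice were 8 weeks old, fed normal chow, and carried both *Fgl1* alleles flanked by loxP sites. The *Fgl1* LKO mice also carried a Cre recombinase driven by the albumin promoter, which deletes *Fgl1* in hepatocytes, and the *Fgl1* LWT mice were littermates without the deletion, called wild type in the labels. *Fgl1* encodes a protein of the fibrinogen family that hepatocytes secrete. Each mouse gave 1 library of polyA RNA, and values are FPKM (fragments scaled to transcript length and to library size).

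Major urinary proteins are small lipocalins, barrel-shaped proteins that carry hydrophobic ligands. In the mouse they are made mainly by hepatocytes, are secreted into blood and pass into urine, where they bind volatile pheromones and release them slowly. The *Mup20* product, also called darcin, is itself a male pheromone. Male livers make more of these proteins than female livers, and pulsatile growth hormone, acting through the JAK2 kinase and the transcription factor STAT5B, is known to sustain their transcription, together with thyroid hormone, glucocorticoids and androgens. These statements are background and were not measured here.

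The genes form a tandem cluster on mouse chromosome 4 (GRCm39, the assembly that mm39 names, with GENCODE vM39). *Mup1* lies from 60453986 to 60458057, among the closely similar rows. *Mup3* (61947447 to 62005620), *Mup20* (61968464 to 61972395) and *Mup21* (62066056 to 62069175) lie at one end of the cluster, and all 4 genes are on the minus strand. The annotated span of *Mup3* contains *Mup20* on the same strand, although the principal *Mup3* transcript itself lies from 62001713 to 62005620. The principal transcripts of *Mup1*, *Mup20* and *Mup21* each have 6 coding exons and encode proteins of 180, 181 and 181 residues. That of *Mup3* has 7 coding exons and a longer coding sequence (879 bases, 293 residues).

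The 4 genes differ in how far a read of 150 bases can be assigned to them. Of all 150-base stretches of the principal *Mup1* transcript, 68.6% were found letter for letter in transcripts of 14 other *Mup* genes, most of them (66.4%) in *Mup12*. For *Mup20*, 55.6% of the stretches were also present in *Gm70526* and 31.1% in *Mup-ps19*, gene models without a row in the table. No stretch of the principal *Mup3* or *Mup21* transcript was found in another gene. Over bases aligned without gaps, the coding sequence of *Mup1* was 99.6% identical to that of *Mup12*, 91.1% to *Mup20*, 84.4% to *Mup21* and 84.3% to *Mup3*. *Mup3* and *Mup21* were the closest pair of the 4 (96.3%). That value covers 543 aligned bases, and a further 336 positions were gaps because the *Mup3* coding sequence is longer. The *Mup1* value is therefore a share of reads that the alignment could have divided among several genes, and the *Mup20* value may include reads of these models.

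A 60-base stretch of the coding sequences shows this difference, and was taken where the 4 genes differ at the most positions (24 of 60). Capitals mark bases that differ from *Mup1*. The stretch runs 5′ to 3′ from coding base 212 to 271 of *Mup1* and *Mup12*, 215 to 274 of *Mup20* and *Mup21*, and 224 to 283 of *Mup3*.
Mup1: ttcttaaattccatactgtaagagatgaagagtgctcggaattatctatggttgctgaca
Mup3: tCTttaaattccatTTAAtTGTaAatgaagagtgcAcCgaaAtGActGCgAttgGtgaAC
Mup20: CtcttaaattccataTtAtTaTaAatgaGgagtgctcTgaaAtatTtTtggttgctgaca
Mup21: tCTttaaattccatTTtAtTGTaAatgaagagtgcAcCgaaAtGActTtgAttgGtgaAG
Mup12: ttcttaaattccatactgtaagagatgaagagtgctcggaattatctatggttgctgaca
*Mup12* had no difference from *Mup1* here, *Mup20* had 11, *Mup21* had 19 and *Mup3* had 21.

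The first 60 coding bases hold the most differences between *Mup1* and *Mup12* in any such stretch, and there are 2, again in capitals.
Mup1: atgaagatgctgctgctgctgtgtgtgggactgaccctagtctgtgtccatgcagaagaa
Mup12: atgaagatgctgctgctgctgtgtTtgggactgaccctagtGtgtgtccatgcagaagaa
A read from most other parts of either transcript carries no base that separates them.

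Of the 4 genes, *Mup3* and *Mup21* had an entry in the RefSeq promoter table (GRCm38.p6, minus strand). The 250 bases before each start are shown because these are the genes whose transcripts shared no 150-base stretch with another gene. They are chr4:62087318-62087567 for *Mup3* and chr4:62150842-62151091 for *Mup21*, printed 5′ to 3′, and capitals mark the longest run that both share (37 bases).
Mup3: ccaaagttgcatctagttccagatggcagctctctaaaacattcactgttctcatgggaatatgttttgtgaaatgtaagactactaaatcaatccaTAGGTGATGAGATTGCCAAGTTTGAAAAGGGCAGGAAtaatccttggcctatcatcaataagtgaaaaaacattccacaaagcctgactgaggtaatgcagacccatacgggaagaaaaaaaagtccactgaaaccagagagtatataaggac
Mup21: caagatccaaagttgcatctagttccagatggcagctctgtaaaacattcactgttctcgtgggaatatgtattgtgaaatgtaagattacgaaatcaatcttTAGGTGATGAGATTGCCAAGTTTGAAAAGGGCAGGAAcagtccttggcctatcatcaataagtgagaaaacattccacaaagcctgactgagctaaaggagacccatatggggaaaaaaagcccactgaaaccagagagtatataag
These promoters matched at 228 of 244 positions aligned without gaps (93.4%). Motifs were searched on both strands. The STAT motif TTCNNNGAA was in 7.02% of 32851 promoter windows of this length, a C/EBP motif (TTNNGCAA) in 9.56%, the TATA box TATAAA in 12.4% and the CCAAT box in 33.8%. None of these 4 motifs, as spelled here, was found in the *Mup3* or *Mup21* windows, which says nothing about binding outside them or to other letters. Both windows hold TATATAA near the 3′ end, and TATAAA was the only spelling of the TATA box searched.

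The deleted gene was checked first. *Fgl1* lay between 157.8 and 1331 FPKM in the *Fgl1* LWT mice and between 13.2 and 90.0 FPKM in the *Fgl1* LKO mice, with no overlap (p = 0.000155 by a two-sided exact permutation, the smallest that 12870 splits of the mice allow). The summed FPKM of 5 hepatocyte markers was 52747 to 86714 in LWT and 48167 to 68782 in LKO livers, and albumin alone was 31146 to 61191 FPKM. Sums were 2.19 to 7.16 FPKM for 4 cholangiocyte markers and 1.99 to 21.6 FPKM for 5 leukocyte markers. They were highest among the other cell types for 4 erythroid markers (296.7 to 1018 FPKM). Total reads per library are unknown. A relative depth estimated from 21 to 38 low values per library was 0.977 to 1.02. Only values near the median of their gene were kept for it, which holds the estimate near 1, so it cannot show equal depth. The mouse numbers were grouped here into 4 runs (36 to 38, 48 to 55, 60 to 64, and 69 to 72). Of these, the first holds 3 LWT mice and no LKO mouse. The labels do not give these runs, and the grouping is a choice. Mouse 55 (LKO mouse 3), placed in the second run, is as far from mouse 50 as from mouse 60. In whole liver RNA, fewer cells of a type and less RNA per cell cannot be told apart.

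*Mup20* and *Mup3* were among the most abundant transcripts, at ranks 16 and 17 of all genes by mean FPKM. The mean of *Mup20* was 7748 FPKM over the 16 mice and that of *Mup3* was 7443 FPKM. *Mup20* was the higher of the pair in 9 of 16 mice, and the difference between these neighbours was not tested. *Mup1*, a classical urinary form, had a mean of 1745 FPKM (rank 52) and lay below both in 16 of 16 mice. *Mup21*, the least abundant of the 4, had a mean of 298.0 FPKM (rank 311) and lay below *Mup1* in 16 of 16 mice.

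*Mup1* was measured at 1098, 496.3, 1912, 818.4, 1930, 3553, 700.1 and 3079 FPKM in LWT mice 1 to 8. In LKO mice 1 to 8 it was 1340, 2195, 1032, 1549, 2337, 2328, 1861 and 1686 FPKM. The 2 lowest and the 2 highest values were all from LWT mice, and every LKO mouse lay within the LWT range. The means were 1698 ± 1135 FPKM in LWT and 1791 ± 479 FPKM in LKO livers (SD, n = 8 each).

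*Mup3* was at 6796, 9996, 8107, 8438, 6472, 8080, 4281 and 10005 FPKM in LWT mice 1 to 8. The LKO mice had 7253, 7172, 7431, 7913, 8029, 6169, 7142 and 5799 FPKM. No LKO mouse lay above the LWT median (8094 FPKM), and all 8 were within the LWT range. The means were 7772 ± 1905 and 7113 ± 777 FPKM (SD, n = 8 each), and *Mup3* varied least of the 4 genes, with a highest value 2.34 times the lowest.

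*Mup20* was at 8445, 7950, 8675, 4125, 8211, 12070, 2322 and 10931 FPKM in LWT mice 1 to 8. The corresponding LKO values were 5703, 10189, 6468, 7555, 11387, 7805, 8692 and 3433 FPKM. Both groups spanned low and high mice, and all 8 LKO mice lay within the LWT range. The means were 7841 ± 3227 FPKM in LWT and 7654 ± 2521 FPKM in LKO livers (SD, n = 8 each).

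*Mup21* was at 238.3, 142.3, 450.9, 247.8, 282.3, 381.4, 121.5 and 520.3 FPKM in LWT mice 1 to 8. In LKO mice 1 to 8 the values were 283.8, 359.8, 156.6, 399.2, 406.2, 342.7, 331.7 and 102.9 FPKM. LKO mouse 8 had the lowest value of all, and the other 7 LKO mice lay within the LWT range. The means were 298.1 ± 142.2 and 297.9 ± 111.6 FPKM (SD, n = 8 each).

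**Figure D1:**
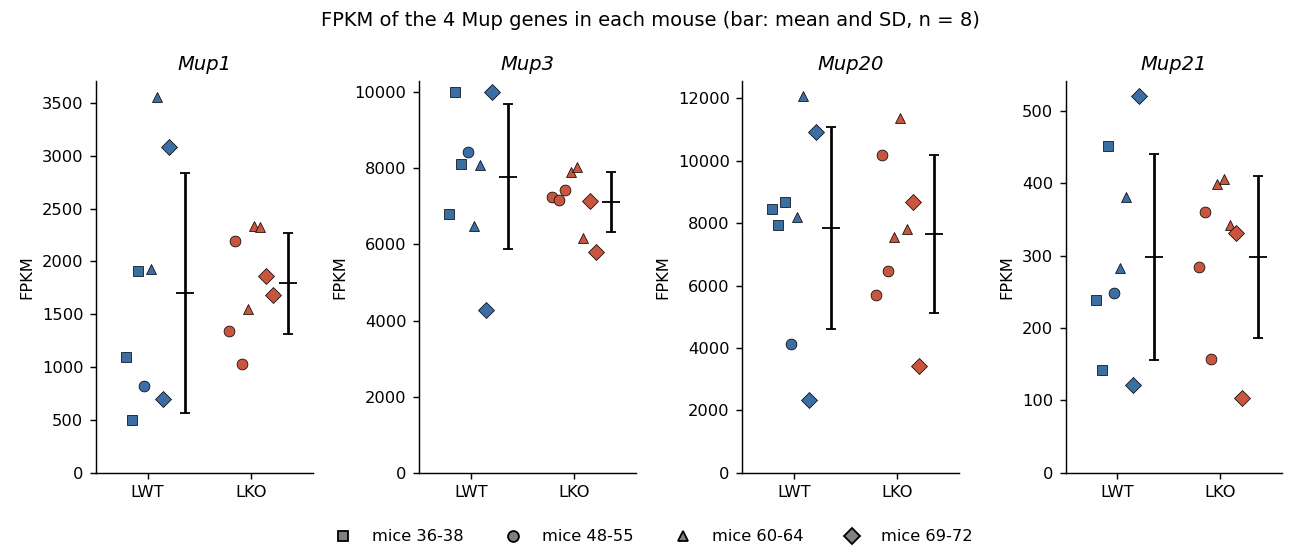
Each point is the FPKM value of 1 mouse for *Mup1*, *Mup3*, *Mup20* and *Mup21*, in LWT (blue) and LKO (red) livers, with the marker shape giving the run of mouse numbers and the bar the mean and SD (n = 8). The 2 genotypes overlap for each gene, and the *Mup1* values are spread more widely in LWT livers (496.3 to 3553 FPKM) than in LKO livers (1032 to 2337 FPKM).

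The comparison of genotypes asked whether deleting *Fgl1* in hepatocytes went with another level of these transcripts. None of the 4 genes passed the test (limma on log2(FPKM + 1), Benjamini-Hochberg over 12770 genes), and neither did any other gene, so the share called was 0%. At an unadjusted p under 0.05, 895 genes (7.01%) were called, 593 of them higher and 302 lower in LKO livers, and none of these was one of the 4. With median-ratio scaling that split was 468 higher and 518 lower. *Fgl1* itself differed by -3.11 on the log2 scale with an adjusted limma p of 0.0725, and passed in 5 alternatives.

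On the log2(FPKM + 1) scale, the LKO minus LWT difference of *Mup1* was 0.33 ± 0.35 (SE), with a 95% interval from -0.41 to 1.08 and an adjusted limma p of 0.826. For *Mup3* the difference was -0.09 ± 0.15 (interval -0.41 to 0.23, limma, adjusted p = 0.899). *Mup20* differed by 0.04 ± 0.31 (interval -0.61 to 0.69, limma, adjusted p = 0.980). *Mup21* differed by 0.03 ± 0.33 (interval -0.66 to 0.72, limma, adjusted p = 0.983). Of the 4 intervals, that of *Mup3* was the narrowest. Exact permutation tests of single genes, two-sided, gave p = 0.409 for *Mup1*, 0.577 for *Mup3*, 0.915 for *Mup20* and 0.935 for *Mup21*.

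Within runs of mouse numbers the differences had both signs. In the second run (1 LWT and 3 LKO mice), *Mup1* differed by 0.82 and *Mup20* by 0.81 on the log2 scale. In the third (2 and 3 mice) the values were -0.36 for *Mup1* and -0.19 for *Mup20*, and in the fourth (2 and 2 mice) 0.27 and 0.12. *Mup3* stayed closer to 0 (-0.21, 0.02 and -0.02), and *Mup21* gave 0.02, 0.22 and -0.44. With the run as a term in the limma fit, the difference was 0.15 for *Mup1*, -0.055 for *Mup3*, 0.17 for *Mup20* and -0.056 for *Mup21*.

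**Figure D2:**
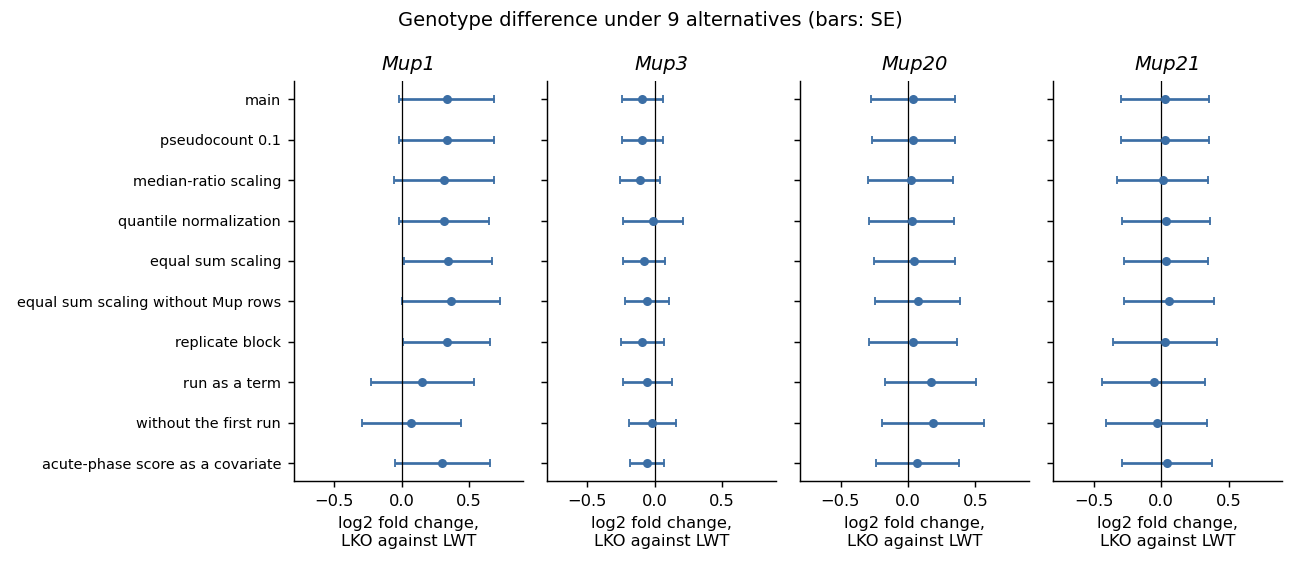
Points are the log2 fold changes of each gene (x axis, LKO against LWT) in the chosen fit, called main, and under 9 alternatives (y axis), with bars of 1 SE. The bars of *Mup3*, *Mup20* and *Mup21* cross 0 in each fit shown, and the *Mup1* value falls from 0.33 to 0.07 when the first run is left out.

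The sum over all 22 *Mup* rows pools the rows that can share reads. It can still depend on how such reads were divided or dropped, since FPKM divide by transcript length and the rows' principal transcripts run from 652 bases (*Mup14*) to 1781 bases (*Mup7*). The sum was 106554 ± 48032 FPKM in LWT and 114970 ± 21680 FPKM in LKO livers (SD, n = 8 each). This sum made up 8.93% to 23.6% of all FPKM of a mouse, 14.4% ± 5.65 in LWT and 15.96% ± 2.74 in LKO livers (SD, n = 8 each). The share did not differ beyond the spread between mice (exact permutation test, two-sided, p = 0.498), nor did the log2 sum (difference 0.21, exact permutation p = 0.402). *Mup1*, *Mup3*, *Mup20* and *Mup21* together were 9.30% to 30.9% of the *Mup* sum. *Mup7* and *Mup22* carried the largest parts, at ranks 2 and 3 of all genes after albumin, and 12 of the 84 genes whose mean reached 1000 FPKM were *Mup* rows. *Mup4* was listed at 0 in every mouse.

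Among the other rows, *Mup13* was the only one with an unadjusted limma p under 0.05 (0.0479), at 8.21 ± 8.15 FPKM in LWT and 14.2 ± 8.09 FPKM in LKO livers, with an adjusted limma p of 0.696. Of the 16 other rows tested, 14 had a log2 difference above 0, from -0.13 (*Mup22*) to 1.34 (*Mup17*) with a median of 0.43, against 55.8% of all genes above 0. When the first run was left out, 8 of the 16 were above 0 and the median was -0.03. Levels of several rows moved with the run of mouse numbers. *Mup9*, *Mup13*, *Mup15*, *Mup17* and *Mup18* were lower in each of the 3 mice of the first run than in each of the 13 other mice. For *Mup15* the ranges were 194.1 to 1151 FPKM in the first run and 1335 to 12743 FPKM elsewhere. *Mup3*, *Mup20* and *Mup21* did not follow this order, with 1, 5 and 1 of the 13 other mice above the highest first-run value. *Mup1* lay between, with 6 of 13. How many of all genes separated the first run from the other mice was not counted. *Mup9*, *Mup13*, *Mup15*, *Mup17* and *Mup18* can share reads, so they are not independent of each other. Since the first run holds LWT mice only, run and genotype cannot be told apart in it. Without that run the log2 sum over *Mup* rows differed by -0.035 (exact permutation p = 0.895).

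**Figure D3:**
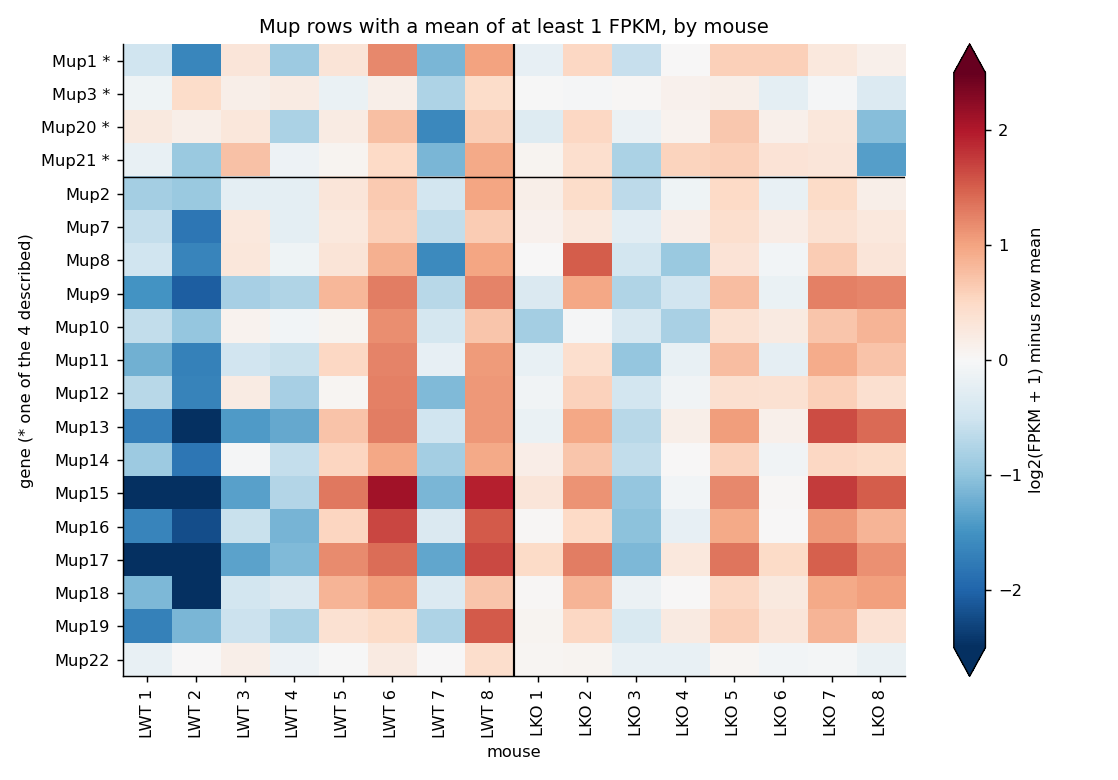
Colors give log2(FPKM + 1) minus the mean of the row for 19 *Mup* rows whose mean reached 1 FPKM (y axis, those described marked with a star) in 16 mice (x axis, LWT left of the line), cut at 2.5 in either direction. LWT mouse 2 is low in *Mup1*, *Mup21* and most rows like *Mup1*, but not in *Mup22*, *Mup3* or *Mup20*. LWT mouse 7 and LKO mouse 8 are low in *Mup3*, *Mup20* and *Mup21*, and LWT mouse 7 also in *Mup1*.

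The mice differed from each other along more than 1 pattern. LWT mouse 7 had the lowest *Mup3* (4281 FPKM) and *Mup20* (2322 FPKM) of all mice and the lowest *Mup21* of its group. Its *Mup1* value (700.1 FPKM) was the second lowest of all. LKO mouse 8 was the lowest of its group in the same 3 genes, while its *Mup1* value (1686 FPKM) was near the group mean. LWT mouse 2 had the lowest *Mup1* (496.3 FPKM), and its *Mup21* value (142.3 FPKM) was the second lowest of the LWT mice. By contrast, its *Mup3* value (9996 FPKM) was the second highest of all and its *Mup20* value was near the group mean. LKO mouse 5 was the highest of its group in all 4 genes.

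Markers of an acute-phase response also differed between these mice. *Saa1*, which encodes serum amyloid A and is induced in hepatocytes in inflammation, ranged from 63.8 to 16268 FPKM in LWT and from 68.4 to 7669 FPKM in LKO livers. It was 16268 FPKM in LWT mouse 7, the highest of all, 2890 FPKM in LKO mouse 8, and 7669 FPKM in LKO mouse 5. *Fgl1* itself was highest in LWT mouse 7 (1331 FPKM). High *Saa1* therefore stood beside low *Mup20* in LWT mouse 7 and beside high *Mup20* in LKO mouse 5. In LWT mouse 5, *Saa1* was 13092 FPKM and *Mup20* was 8211 FPKM, near its group mean. In a fit that took the acute-phase mean as covariate, *Mup3* differed between genotypes by -0.06 and *Mup20* by 0.07, and the correlations with that mean are given with the other list means.

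The spread of *Mup* values between mice was larger in LWT than in LKO livers. The SD of log2(FPKM + 1) was 1.03 in LWT and 0.42 in LKO livers for *Mup1*, 0.40 and 0.16 for *Mup3*, 0.79 and 0.54 for *Mup20*, and 0.75 and 0.71 for *Mup21*. The LWT value was the larger in 19 of 19 *Mup* rows whose mean reached 1 FPKM, against 49.3% of all 12770 genes. Without the first run it was larger in 18 of 19 rows, against 45.1% of genes. *Mup* rows share reads and mice and are not independent of each other, and this difference in spread was noticed in the data and not tested.

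Correlations over the 16 mice were then taken for the 6 pairs of the 4 genes and for each gene with 3 list means, 18 relations in all (permutation tests, two-sided, Benjamini-Hochberg over the 18). Of these, 9 passed by Pearson and 7 by Spearman correlation. *Mup20* and *Mup21* gave the highest r of any pair, 0.76 (adjusted permutation p = 0.00486), with Spearman's rho of 0.72 (adjusted permutation p = 0.0122). Within LKO mice r was 0.86 (exact p = 0.00833, n = 8) and within LWT mice 0.71 (exact p = 0.0443, n = 8). Without LWT mouse 7 and LKO mouse 8, r was 0.51 (permutation p = 0.0636, n = 14).

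*Mup1* and *Mup21* had an r of 0.72 (adjusted permutation p = 0.00688) and a rho of 0.75 (adjusted permutation p = 0.0121). Without LWT mouse 7 and LKO mouse 8, r was 0.85 (permutation p = 0.00016). *Mup1* and *Mup20* had an r of 0.61 (adjusted permutation p = 0.0299) and a rho of 0.75 (adjusted permutation p = 0.0121), with 0.68 left without those mice (permutation p = 0.00814). With run means taken out, r was 0.74 for *Mup20* with *Mup21*, 0.74 for *Mup1* with *Mup21* and 0.74 for *Mup1* with *Mup20*.

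*Mup3* followed the others less closely. Its r with *Mup20* was 0.65 (adjusted permutation p = 0.0220) but rho was 0.42 (adjusted permutation p = 0.185), and r was 0.10 without LWT mouse 7 and LKO mouse 8, so the relation rests on those mice. With *Mup21*, r was 0.49 (adjusted permutation p = 0.0967) and rho 0.50 (adjusted permutation p = 0.102), and r was 0.0013 without LWT mouse 7 and LKO mouse 8. Over aligned bases, the coding sequences of this pair are the most alike of the 4. With *Mup1*, r was 0.14 (adjusted permutation p = 0.651) and rho 0.10 (adjusted permutation p = 0.794), and r was -0.45 without LWT mice 7 and 8 (permutation p = 0.109). Run means taken out gave 0.67, 0.54 and 0.34 for these pairs in turn.

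**Figure D4:**
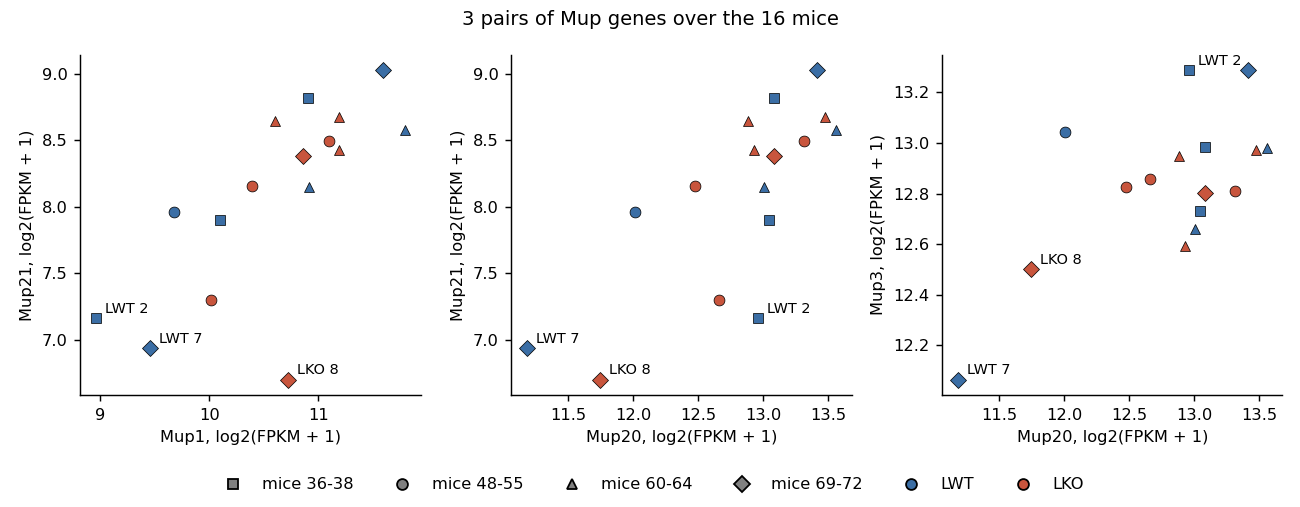
Each point is 1 mouse, with log2(FPKM + 1) of *Mup1* and *Mup21* (left), *Mup20* and *Mup21* (middle) and *Mup20* and *Mup3* (right) on the axes, color for genotype and shape for the run of mouse numbers. LWT 7 and LKO 8 lie at the low end of the middle and right panels, and the *Mup20* to *Mup3* r of 0.65 is 0.10 without them.

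Across *Mup* rows, similarity of sequence and of pattern were set side by side, as a description over the same 16 mice with genotype means taken out. *Mup1* had r between 0.66 (*Mup22*) and 0.98 (*Mup12*, the gene with which it shares most stretches) with the 15 other rows that had a mean of at least 1 FPKM, with a median of 0.81. *Mup21* had a median r of 0.50 with these rows, *Mup20* of 0.32 and *Mup3* of 0.03. The 97 pairs of rows with at least 98% coding identity had a median r of 0.86, 24 pairs from 95% to 98% of 0.79, and 50 pairs under 95% of 0.34. *Mup20* with *Mup21*, at 87.5% identity and with no shared 150-base stretch, had an r of 0.76, so a high r was also found between genes that share no such reads. Pairs share genes, libraries and, where near-identical, reads.

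**Figure D5:**
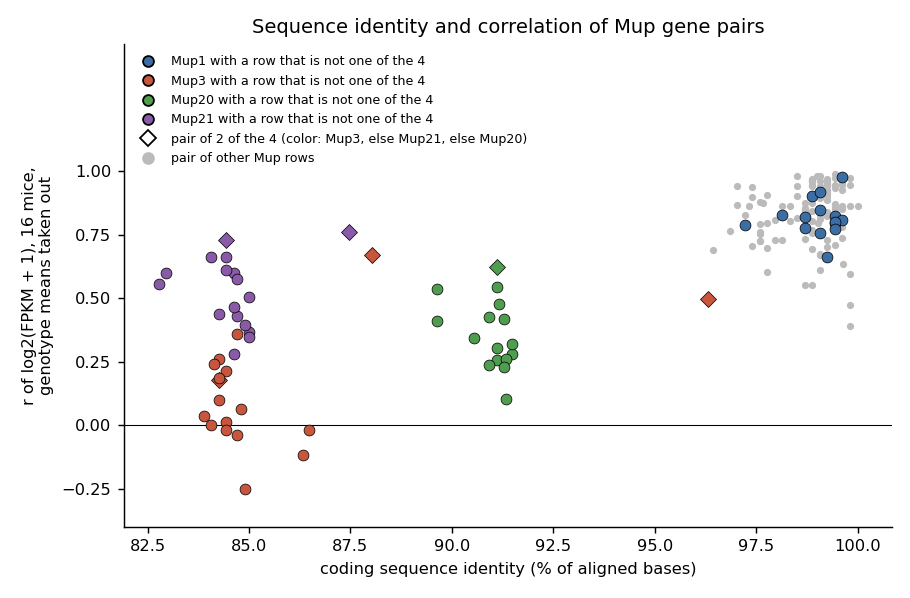
Each point is a pair of *Mup* rows, with the percent identity of their coding sequences on the x axis and Pearson's r of log2(FPKM + 1) over 16 mice, genotype means taken out, on the y axis, colored by the gene described. *Mup1* (blue) sits with the near-identical rows at r from 0.66 to 0.98, and *Mup3* (red) lies around 0 with most rows.

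The lists of male-biased, female-biased and acute-phase genes were each reduced to 1 value per mouse, the mean of its tested genes after scaling each to an SD of 1. *Mup1* had an r of 0.78 with the mean of 15 male-biased liver genes (adjusted permutation p = 0.00450, rho 0.67, adjusted permutation p = 0.0195). With genotype means taken out, 10 of the 15 single genes had an r over 0.5 with *Mup1*. The share of all genes with such an r was not counted. Without LWT mice 2 and 7, the r of *Mup1* with the list mean was 0.52 (permutation p = 0.0576), so that it rests in part on those mice. Within genotypes it was 0.87 in LWT (exact p = 0.00553, n = 8) and 0.22 in LKO mice (exact p = 0.600, n = 8), a difference that was not tested. *Mup21* had an r of 0.77 (adjusted permutation p = 0.00450, rho 0.71, adjusted permutation p = 0.0122), which was 0.63 without those mice (permutation p = 0.0131).

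*Mup20* had an r of 0.57 with the male-biased mean (adjusted permutation p = 0.0453, rho 0.61, adjusted permutation p = 0.0338) and 0.51 without LWT mice 2 and 7 (permutation p = 0.0636). For *Mup3*, r was 0.41 (adjusted permutation p = 0.173) and rho 0.41 (adjusted permutation p = 0.185), but r was 0.68 without LWT mice 2 and 7 (permutation p = 0.00651). Taking run means out gave 0.84 for *Mup1*, 0.60 for *Mup3*, 0.77 for *Mup20* and 0.85 for *Mup21*. All 4 genes thus had a positive r with the male-biased mean, of which 3 passed.

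With the mean of 7 female-biased genes, *Mup1* had an r of -0.77 (adjusted permutation p = 0.00450) and a rho of -0.69 (adjusted permutation p = 0.0147). Leaving out LWT mouse 2 and LKO mouse 3 gave -0.61 (permutation p = 0.0195), and run means taken out gave -0.70. *Mup21* had -0.44, *Mup20* -0.18 and *Mup3* 0.25, none of which passed, and without the same mice the values were -0.16, -0.30 and -0.05. LWT mouse 2, with the lowest *Mup1*, had the lowest male-biased and the highest female-biased mean of the 16 mice. Of the 7 single genes, 3 had an r under -0.5 with *Mup1*, genotype means taken out. The group means of those 3 were 0.08 to 1.09 FPKM, near the floor of values with 2 decimals. The others had r from -0.48 to -0.34. How many of all genes had an r under -0.5 with *Mup1* was not counted.

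With the mean of 9 acute-phase genes, *Mup3* had an r of -0.60 (adjusted permutation p = 0.0299), while rho was -0.50 (adjusted permutation p = 0.102). Without LWT mice 5 and 7 r was -0.36 (permutation p = 0.209), so this relation rests on those mice, and run means taken out gave -0.55. *Mup20* had -0.25, *Mup21* -0.12 and *Mup1* 0.24, and none of these passed. Without LWT mice 5 and 7 they were 0.06, 0.12 and 0.56 (permutation p = 0.0377 for *Mup1*). The *Mup1* value was 0.71 within LKO mice (exact p = 0.0492, n = 8), 0.10 within LWT mice (exact p = 0.789, n = 8) and -0.14 with run means taken out, so its sign depends on the run.

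Lists of genes of the growth hormone pathway, of liver transcription and of other liver programs were compared between genotypes in the same limma fit, and no gene of any list had an adjusted p under 0.05. Of 12 growth hormone and STAT5 pathway genes, 1 was lower and none higher at an unadjusted p under 0.05 (all genes tested, 2.36% lower and 4.64% higher). It was *Igfals*, which encodes the acid-labile subunit that holds IGF1 in the circulation, at 65.7 ± 9.68 FPKM in LWT and 53.6 ± 12.9 FPKM in LKO livers (log2 difference -0.31 by limma, adjusted p = 0.696). The median log2 difference of the list was -0.05, against 0.01 over all genes tested. When the first run was left out, 1 gene was higher, none was lower and the median was 0.03. Over all 12770 genes that fit gave 643 higher, 171 lower and a median of 0.03. No gene of the list was lower in 6 of 16 fits with 1 mouse left out (LWT 1, 4 or 6, or LKO 3, 7 or 8).

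Of 14 tested transcription factors and hormone receptors, 1 was lower at an unadjusted p under 0.05 (all genes tested, 2.36% lower). It was *Foxa1*, a pioneer factor of liver genes, at 6.18 ± 2.14 and 4.53 ± 0.72 FPKM (log2 difference -0.33, limma, adjusted p = 0.696). No gene of this list was lower with the replicate block or in 7 of 16 fits with 1 mouse left out (LWT 1, 4 or 6, or LKO 1, 3, 6 or 8). With the run as a term none was lower and 1 was higher, against 753 of all 12770 genes higher. None of 15 male-biased genes was called in either direction, and their median difference was 0.28, or -0.07 with the run as a term. The most abundant were *Gstp1*, a glutathione transferase (5857 ± 1641 and 5555 ± 1507 FPKM), *Cyp2d9* (946.5 ± 142.7 and 959.6 ± 205.4 FPKM) and *Selenbp2* (741.9 ± 417.3 and 857.7 ± 267.1 FPKM). Of 17 female-biased genes 7 were expressed enough to be tested, none was called and their median was 0.01, or 0.22 with the run as a term, 0.26 when the first run was left out, and -0.16 to 0.15 with single mice left out. Most abundant of these were the cytochromes *Cyp2c40* (32.9 ± 27.9 and 28.3 ± 18.5 FPKM) and *Cyp2c69* (9.84 ± 9.06 and 7.79 ± 5.37 FPKM), and *Cyp17a1* (6.50 ± 4.12 and 7.29 ± 3.88 FPKM).

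Among 10 tested lipocalins outside the *Mup* cluster, 1 was lower at an unadjusted p under 0.05 (all genes tested, 2.36% lower). It was *Ptgds*, a prostaglandin D synthase, at 3.24 ± 1.73 and 1.77 ± 0.44 FPKM (log2 difference -0.53, limma, adjusted p = 0.696), and the list median was -0.07. *Lcn2*, *Orm1* and *Orm2* are in both this list and the acute-phase list, so these lists are not independent of each other. With the run as a term 2 lipocalins were lower and the list median was -0.37, against 279 of all 12770 genes lower and a median of 0.02. When the first run was left out 3 were lower and the list median was -0.42, against 171 of all genes lower and a median of 0.03. Without LWT mouse 7 alone the list median was 0.06. None of 9 acute-phase genes was called. Their median difference was 0.23, but -0.47 when run was a term and -0.84 when the first run was left out. *Hp*, which encodes haptoglobin, had 5100 ± 3828 FPKM in LWT and 5045 ± 2446 FPKM in LKO livers, *Saa1* 3997 ± 6665 and 2431 ± 2535 FPKM, and *Saa2* 3799 ± 6613 and 1650 ± 2108 FPKM.

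The genes most like each of the 4 were ranked by Pearson's r over the 16 mice, genotype means taken out, among 10018 genes outside the *Mup* rows whose mean reached 1 FPKM. These are the extremes of many values over few mice and carry no test. For *Mup1* they were *Ulk3*, a protein kinase (0.86), *C6*, a complement component that is in the male-biased list (0.84), and *Nudt3* (0.78). Most opposed were *Abcd2*, a peroxisomal fatty acid transporter (-0.84), *Trp53bp2* (-0.83) and *Enpep*, an aminopeptidase (-0.82). *Mup21* was most like *Cyp4a12b*, a male-biased cytochrome (0.81), *Ugt2b1*, a male-biased glucuronosyltransferase (0.78), and *Atat1*, a tubulin acetyltransferase (0.78). It was most opposed to *H3f3b*, a histone gene (-0.84), *Tead1* (-0.80) and *Pspc1* (-0.79).

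For *Mup20* the most alike were *Uri1* (0.87), *Eny2*, which encodes a subunit of a transcription coactivator complex (0.85), and *Yaf2* (0.84). Most opposed were *Patj*, a cell polarity gene (-0.83), *Esr1*, the oestrogen receptor alpha gene (-0.81), and *Il18bp*, which encodes a binding protein of interleukin-18 (-0.80). *Mup3* was most like *Zfp101* (0.89), *Acadsb*, a mitochondrial acyl-CoA dehydrogenase (0.87), and *Gabarapl2*, an autophagy gene (0.85). It was most opposed to *Gnat1* (-0.85), *F2*, which encodes prothrombin (-0.85), and *Slc1a5*, a glutamine transporter (-0.84). No gene was named for more than 1 of the 4.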

How the data were processed

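Livers of *Fgl1* LWT and *Fgl1* LKO mice (8 each) were sequenced as stranded, paired-end libraries of 150-base reads. The authors filtered reads, aligned them to mm39 with HISAT and to reference genes with Bowtie2, and deposited FPKM values with 2 decimals, scaled to transcript length and library size. How reads matching several *Mup* genes were counted, and the annotation and software versions, are not given in the sources used here. Genotypes and replicate numbers were taken from the labels, which list more mice per genotype than the methods of the study name for sequencing. All labelled mice were used. Apart from these numbers, nothing in the labels pairs the mice.

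FPKM are not counts, so 1 was added, log2 was taken and the 12770 genes whose mean reached 0.1 FPKM were compared with limma 3.58.1 in R 4.3.3 (lmFit, then eBayes with trend). Tests were two-sided, p-values were adjusted by Benjamini and Hochberg, and the threshold was 0.05. Fold changes are on this scale, which understates those of low genes. Single values were compared by exact permutation over 12870 splits, and correlations by 100000 permutations over 16 mice, and over 14 where 2 were left out, or all 40320 orders of 8 mice. Python 3.11.15, numpy 2.4.6, scipy 1.17.1 and pandas 2.3.3 were used. The limma fit and correlation tests were tested on simulated data.

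Positions and transcripts are from GRCm39 and GENCODE vM39, in which all 22 *Mup* rows had a gene. Promoters are from RefSeq (GRCm38.p6), which held 14 *Mup* rows and 2 of the 4 genes described. The table has no read totals, so no counting error can be given. The genes, lists and tests were chosen with earlier results of these data known. Genes were named by rule: the 4 genes, other *Mup* rows by value, *Fgl1*, *Saa1*, of each list those with an unadjusted p under 0.05, else up to 3 with the highest mean, and the 3 genes most like and most opposed to each *Mup* gene. For lists with a called gene only that gene is named, apart from *Lcn2*, *Orm1* and *Orm2*, which the lipocalin list shares with the acute-phase list. Alternatives were other pseudocounts, filters, scalings and fits, the run of mouse numbers, an acute-phase covariate and leaving out each mouse.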

Additional observations from a re-analysis of the deposited data

How the results depend on the processing

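The depth of the libraries is unknown, so low rows such as *Mup6* and *Mup13* have an unknown counting error, and *Mup1* depends on how reads of near-identical genes were divided. In 31 alternatives none of the 4 genes passed the limma threshold, with adjusted p from 0.672 (*Mup3*) to 0.999 (*Mup20*, *Mup21*). *Mup1* kept a positive and *Mup3* a negative difference in all 31. The log2 difference of *Mup21* turned to -0.056 with the run as a term and to -0.034 without the first run. Single mice left out gave 0.12 to 0.53 for *Mup1*, -0.21 to -0.03 for *Mup3*, -0.19 (without LWT mouse 7) to 0.19 (without LKO mouse 8) for *Mup20*, and -0.13 (without LWT mouse 7) to 0.23 (without LKO mouse 8) for *Mup21*, so that the sign of the last 2 genes depends on single mice. The number of genes called over the table was 0 in the chosen fit and 1, *Fgl1*, with equal sum scaling, the replicate block, the run as a term, the first run left out and the acute-phase covariate. For the log2 sum of *Mup* rows the difference turned to -0.035, and for their percent of all FPKM to -0.56, without the first run. Single mice left out gave 0.11 to 0.34 for the log2 sum and 0.72 to 2.83 percentage points for the share. Of the 18 correlations, 9 passed in the chosen setting and 9, 9 and 8 in the other settings; with median-ratio scaling the *Mup3* to acute-phase r was -0.46 (adjusted permutation p = 0.113). No list had a gene with an adjusted limma p under 0.05 in any of 21 alternatives. Same-numbered mice of both genotypes had an r over 0.1 in 3 of 8 pairs (-0.16 to 0.45). The mean r was 0.07 for same-numbered and -0.01 for different-numbered mice. With 8 pairs this cannot show whether the numbers pair the mice. With the replicate block, *Mup1* differed by 0.33 (adjusted limma p = 0.777), *Mup3* by -0.09, *Mup20* by 0.04 and *Mup21* by 0.03, and the exact permutation p of the *Mup* sum was 0.438.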
